A study of Mus musculus with 6 samples.

Results

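The cells described here came from colons of mice after bone marrow transplantation. They met a rule on T-cell genes and had mRNA of Csf2, the gene of the cytokine GM-CSF. A member is a cell barcode with at least 1 unique molecular identifier (UMI) of Csf2 and a sum of at least 3 UMIs over the 6 T-cell genes Cd3d, Cd3e, Cd3g, Trac, Trbc1 and Trbc2. A member also has no UMI of Csf1r, the receptor of macrophages for IL-34 and M-CSF, and none of Epcam, an epithelial gene. Of 39613 barcodes with at least 500 genes and at most 10% mitochondrial UMIs, 4960 met the T-cell conditions and 218 of these had a Csf2 UMI. Below, T cell means a barcode that met these conditions. In the library of mice given bone marrow alone, 20 of 27 members had no UMI of Cd3d, Cd3e, Cd3g or Trac. Whether those 20 are T cells was not tested. The members were chosen by their Csf2, T-cell gene, Csf1r and Epcam UMIs, so the levels of these genes in them are given only as a description.

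The 6 single-cell libraries, 1 for each group, came from colons of transplant recipients. In one pair, donor-derived CD11b+ CD64+ macrophages had been sorted from mice given bone marrow alone (BM) and from mice given bone marrow plus spleen cells, which causes graft-versus-host disease (GVHD). In another pair the same sort was applied to wild-type (WT) and IL-34-/- (IL34KO) recipients, and in the last pair donor T cells were sorted from WT and IL34KO recipients. The stated question for the T-cell pair was whether IL-34, a ligand of CSF-1R on macrophages, affects the emergence of proinflammatory T cells in the tissues that the graft attacks. The sources used here give neither donor genotype, strains and ages nor the time after transplantation or the number of mice pooled. With 1 library per group, no difference between groups has a replicate check, and the intervals printed below cover counting error only. Intervals of expression levels and of their ratios take each UMI as independent and leave out the spread between cells.

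GM-CSF is a cytokine that activated T cells, innate lymphoid cells and other cells release. It acts on monocytes, macrophages, dendritic cells and granulocytes through a receptor made of the CSF2RA and CSF2RB chains, and T-cell GM-CSF is a known driver of intestinal inflammation after allogeneic transplantation. Its gene, Csf2 (ENSMUSG00000018916), lies on chromosome 11 at 54247271 to 54249667 of GRCm38, on the minus strand. Il3 lies beside it at 54265303 to 54267277, and the type 2 cytokine genes Il5 and Il13 lie on the same chromosome at 53720794 to 53725106 and at 53631324 to 53634702.

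The BM library gave 27 members of 129 T cells, and the GVHD library gave 11 of 147. Among macrophage-sorted libraries of WT and IL34KO recipients, the one labelled WT gave 3 of 107 and the one labelled IL34KO gave 12 of 223. The T-cell-sorted library labelled WT gave 60 of 2738, and the one labelled IL34KO gave 105 of 1616. T cells made up 19.5% and 18.9% of the filtered barcodes of these T-cell-sorted libraries, while 40.0% and 36.0% had at least 2 Csf1r UMIs and none of the 6 T-cell genes. Total counts per library ran from 43660889 to 114425913 UMIs over all barcodes. Il34, the gene deleted in the recipients, was not lower in the libraries labelled IL34KO: it stood at 1.81 CPM (UMIs scaled to a common total per group of cells) against 0.976 in the macrophage-sorted pair and at 1.08 against 0.772 in the T-cell-sorted pair. Members had no Il34 UMI in any library. In the macrophage-sorted pair, 57 of 84 Il34 UMIs under the WT label and 144 of 168 under the IL34KO label lay in cells with an Epcam UMI. Such cells numbered 1249 and 2084. In the T-cell-sorted pair 52 of 76 and 51 of 68 Il34 UMIs did, with 2426 and 1752 such cells. The part of the epithelial cells in these levels was not tested. The extent of the deletion is not stated, so Il34 counts do not settle the labels. The libraries are named by their labels throughout.

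Most members carried few Csf2 molecules. One Csf2 UMI was found in 132 members, 2 UMIs in 42 and 3 or more in 44. Of the 208 Csf2 UMIs in BM members, 1 cell held 82, and of the 97 in GVHD members, 1 cell held 39. The 60 members of the T-cell-sorted WT library shared 80 Csf2 UMIs, at most 8 in a cell, and the 105 of the library labelled IL34KO shared 222, at most 15 in a cell. Just inside the T-cell limit, 5 members had a T-cell gene sum of exactly 3, and just outside it 10 further Csf2-positive cells had a sum of 2. Another 126 Csf2-positive cells met the T-cell sum but had a Csf1r or Epcam UMI and were left out, 70 of them in the T-cell-sorted library labelled IL34KO.

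Members were deeper than other T cells, so each was set against T cells of its own library with no Csf2 UMI and a similar number of UMIs, 5 per member where these existed. Median UMIs per cell were 7222 in GVHD members against 6627 in their matched cells, 5542.5 against 5546 in the macrophage-sorted library labelled IL34KO, 4405.5 against 4404 in the T-cell-sorted WT library and 4423 against 4392 in the one labelled IL34KO. In BM all 102 Csf2-negative T cells served, and their median of 5840 stayed below the members' 8059. Barcodes found in both BM and GVHD, 2502 in number, had been dropped from BM, and no barcode of a member recurred in another library.

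The BM members did not look like the other members. Of the 27, 20 (74.1%, exact 95% Clopper-Pearson interval 53.7% to 88.9%) had no UMI of Cd3d, Cd3e, Cd3g or Trac and met the rule through the T-cell receptor beta constant genes alone. Among the Csf2-negative T cells of the same library 11 of 102 (10.8%) lacked them, and among the members of the other 5 libraries 0 of 191 did, which allows a share of up to 1.57% (a limit set, here and at other zeros, as 3 counts of the total). These 20 cells held 174 of the 208 Csf2 UMIs of BM members (83.7%). Trbc2 was found in all 20 and Trbc1 in 18, but Cd4, Cd8a, Cd8b1 and Trdc in none, where 0 of 20 allows up to 15%. Of the T-cell receptor gamma constant genes, Tcrg-C1 and Tcrg-C4 were each found in 8 of the 20 and Tcrg-C2 in none. Each of the first 2 was found in 7 of 102 Csf2-negative BM T cells, and in 1 and 5 of the 191 other members. Tcrg-C2 was found in 24 of the 102 and 17 of the 191. UMIs of Cd3 or Trac genes, which the rule counts, were thus found in 198 of the 218 members and not in these 20.

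What the 20 cells did carry was a set of receptor and type 2 cytokine transcripts that were found in a smaller share of the other members. Il7r, the interleukin-7 receptor, was found in 20 of 20 cells, in 28 of 102 Csf2-negative BM T cells (27.5%) and in 33 of 191 members of other libraries (17.3%). Kit, a stem-cell factor receptor, was found in 16 of the 20 against 20 of 191 elsewhere (10.5%). Il1rl1, the receptor of IL-33, was found in 13 of the 20 against 24 of 191 (12.6%). Klrg1 was found in 15 against 9 of 191, and Gata3, the transcription factor of type 2 lymphocytes, in 17 against 78 of 191 (40.8%). Of the cytokines, Il4 had a UMI in 11 of the 20, Il5 in 10 and Il2 in 9, while in the 191 members elsewhere Il4 and Il5 had none and Il2 was found in 3. Areg, an epidermal growth factor receptor ligand, was found in 16 of 20 and in 68 of 191 (35.6%).

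Of the 16 genes listed for type 1 effector cells, 12 were found in a smaller share of the 20 cells than of the 191 other members, and 4 in a larger share (Tnf, Il12rb1, Cxcr3 and Txk). Ifng had a UMI in 1 of them, in 64 of 102 Csf2-negative BM T cells (62.7%) and in 150 of 191 other members (78.5%). Ccl3 was found in 1 of the 20 against 116 of 191 (60.7%), and Tbx21, the type 1 transcription factor, in 2 against 97 (50.8%). Stat4 was found in 14 of the 20 and Il18rap in 10, and Tnf was found in 12 of the 20 against 40 of 191 (20.9%). Summed over the 8 markers set for innate lymphoid cells, BM members stood at 2883 CPM against 1115 in Csf2-negative BM T cells; in the other 4 libraries with at least 10 members the sums were 685 to 1180 CPM in members and 663 to 1006 in matched cells. The 7 BM members with a Cd3 or Trac UMI had Ifng in 4, Il7r in 5, Gata3 in 4 and Kit, Il4, Il5 and Il2 in 1 each. Results that rest on BM are given with and without it below.

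**Figure D1:**
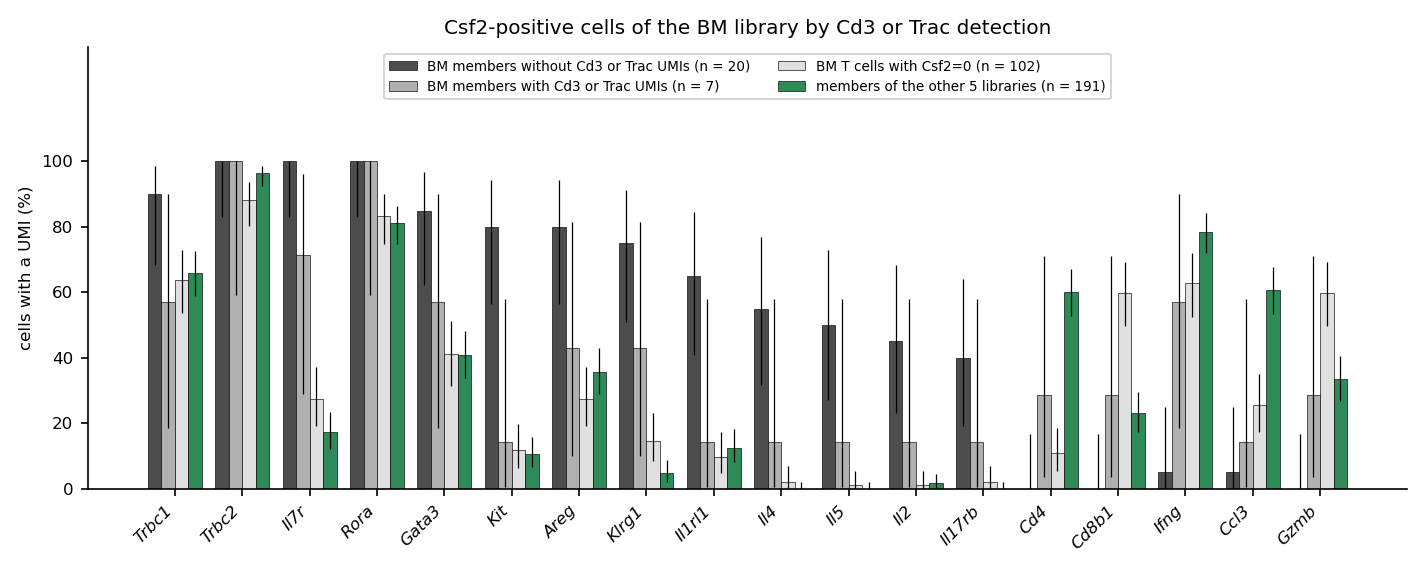
Percent of cells with at least 1 UMI (vertical axis) of the genes along the horizontal axis, in 4 sets of cells: the 20 BM members without and the 7 with Cd3 or Trac UMIs, the 102 BM T cells with Csf2=0, and the 191 members of the other 5 libraries. The sets are not matched for depth. Bars start at 0 and whiskers are exact 95% Clopper-Pearson intervals, which cover counting error; Il7r, Kit, Il4 and Il5 are high and Ifng is low in the 20 BM members that lack Cd3 and Trac.

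The share of T cells with Csf2 mRNA was compared after each cell had been thinned to 1500 UMIs, which left out shallower cells. The thinned counts come from 1 random draw, so the share expected over all draws is given beside the main ones. In the T-cell-sorted pair, 22 of 2414 T cells had Csf2 in the library labelled WT (0.911%, interval 0.572% to 1.38%) and 49 of 1459 in the one labelled IL34KO (3.36%, interval 2.49% to 4.42%). Over all draws 0.961% and 3.41% were expected. The ratio of the drawn shares was 3.69, with a counting interval of 2.19 to 6.40. It was 6.10 (interval 3.07 to 13.2) with cells thinned to 1000 UMIs and 5.59 (interval 3.43 to 9.45) without the Csf1r and Epcam exclusion. Without thinning the shares were 2.19% and 6.5%. Summed over all T cells, Csf2 stood at 7.88 CPM under the WT label and at 33.5 CPM under the IL34KO label, which is 4.24 times as high (interval 3.27 to 5.55). Both measures were thus higher under the IL34KO label, which the Il34 counts do not settle. The difference between animals cannot be told apart from that between libraries.

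In the macrophage-sorted libraries the T cells are what passed a sort for macrophages, so their number is small. After thinning, Csf2 was found in 14 of 126 BM T cells (11.1%, interval 6.21% to 17.9%) and in 4 of 134 GVHD T cells (2.99%, interval 0.819% to 7.47%). Over all draws 10.5% in BM and 4.61% in GVHD were expected. The ratio of GVHD to BM in the draw was 0.27 (interval 0.06 to 0.86), and Csf2 over all T cells stood at 121 against 214 CPM. The share ratio was 0.59 (interval 0.18 to 1.81) at a T-cell gene sum of at least 5, 0.51 with stricter cell filters (interval 0.14 to 1.65) and 0.51 with cells thinned to 3000 UMIs (interval 0.19 to 1.23), and each of these intervals spans 1. When at least 1 UMI of Cd3d, Cd3e, Cd3g or Trac was required, a condition added after the data were seen, the order turned: 1 of 95 BM T cells (1.05%) and 8 of 131 GVHD T cells (6.11%) had Csf2, a ratio of 5.80 with an interval of 0.78 to 257. Under that condition 2.83% of BM and 4.72% of GVHD T cells were expected over all draws, closer together than in the draw. The levels, which thinning does not touch, were 45.3 CPM in BM and 123 CPM in GVHD, a ratio of 2.70 (interval 1.81 to 4.12). A single cell held 14 of the 34 Csf2 UMIs in BM, and a single cell held 39 of the 97 in GVHD. The interval takes each UMI as independent, so it is too narrow and does not settle the order. In macrophage-sorted cells of WT and IL34KO recipients, 2 of 106 T cells had Csf2 in the library labelled WT (1.89%). In the one labelled IL34KO 3 of 218 did (1.38%), a ratio of 0.73 whose interval of 0.08 to 8.73 spans 1. Expected over all draws were 0.629% under the WT label and 1.67% under the IL34KO label, the reverse order.

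Cells that should lack Csf2 gave the background. Among cells with at least 2 Csf1r UMIs and no T-cell gene, thinned alike, none of 1808 in BM, 1983 in GVHD, 3669 and 3720 in the other macrophage-sorted libraries and 5618 in the T-cell-sorted WT library had Csf2, which allows at most 0.166% in any of them. In the T-cell-sorted library labelled IL34KO 1 of 3061 such cells had it. The share of T cells with Csf2 was above this background in every library in this draw. In the macrophage-sorted WT library that rests on 2 cells. There, 0 of 84 T cells had Csf2 with cells thinned to 3000 UMIs, and 0 of 165 without the Csf1r and Epcam exclusion. Median depths before thinning were 7384.5 to 17970 UMIs in the background cells and lower in T cells.

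**Figure D2:**
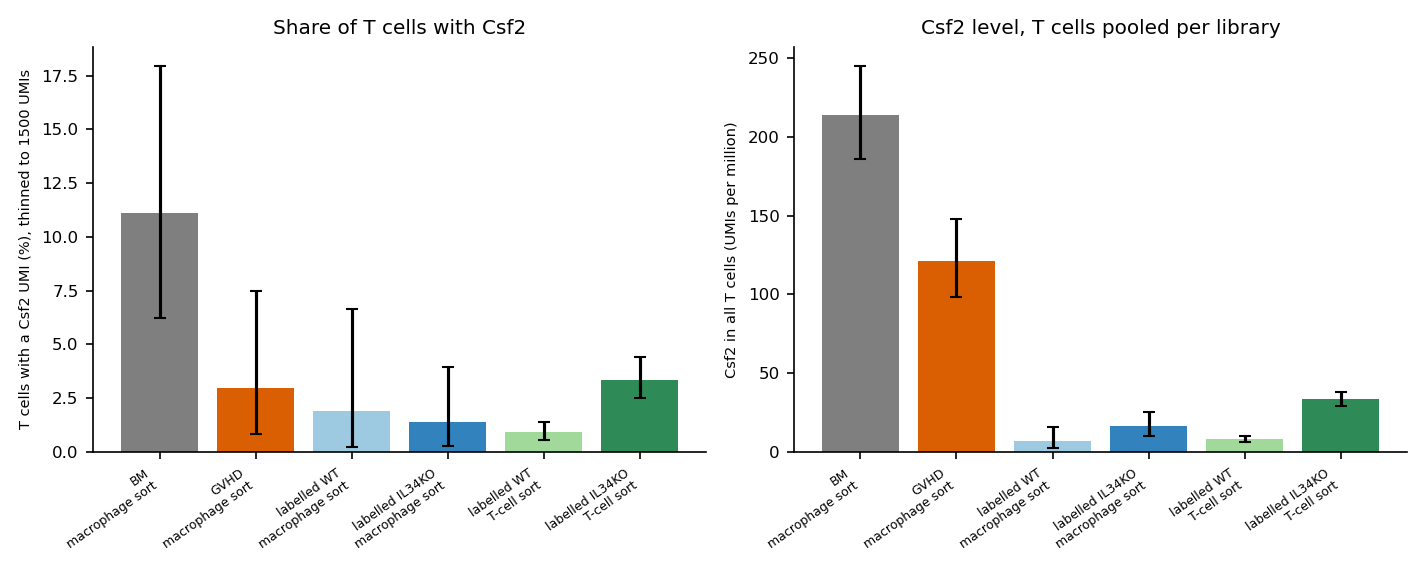
Left, percent of T cells with a Csf2 UMI after thinning each cell to 1500 UMIs; right, Csf2 level (CPM) summed over all T cells of a library; 1 bar for each of the 6 libraries on the horizontal axis. Whiskers are exact 95% intervals, Clopper-Pearson for shares and Poisson for levels, and cover counting error. Shares are from 1 random draw of the thinning. The T-cell-sorted libraries labelled WT and IL34KO sit at 0.911% and 3.36%, and BM is highest on both measures under the rule. With a Cd3 or Trac UMI also required (not drawn), BM is at 1.05% and 45.3 CPM, below GVHD at 6.11% and 123 CPM.

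Csf2-positive T cells were mostly CD4 cells where lineage could be read. A cell was called Cd4 only when it had a Cd4 UMI and no Cd8a or Cd8b1 UMI, and Cd8 only in the reverse case. Cd4-only cells made up 8 of 11 GVHD members (72.7%, against 38.2% of matched cells), 7 of 12 in the macrophage-sorted library labelled IL34KO (58.3% against 33.3%), 31 of 60 in the T-cell-sorted WT library (51.7% against 20.7%) and 57 of 105 in the one labelled IL34KO (54.3% against 17.0%). In BM they made up 2 of 27 (7.41% against 10.8%), and 23 of the 27 had neither gene. The share was higher than in matched cells in 4 of 5 libraries, by 24.9 ± 16.5 percentage points (mean and SD over 5 libraries, exact two-sided sign-flip permutation p = 0.125, 0.4 after Benjamini-Hochberg adjustment over 16 shares).

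Cd8-only cells were fewer among members in each of the 5 libraries with at least 10 members, while in the macrophage-sorted WT library 2 of 3 members were Cd8 only (66.7% against 46.7% of matched cells). They made up 7.41% of BM members against 63.7% of matched cells, 9.09% against 52.7% in GVHD, 16.7% against 48.3% in the macrophage-sorted library labelled IL34KO, 25% against 61.3% in T-cell-sorted WT and 21.0% against 64.6% in the T-cell-sorted library labelled IL34KO. Over those 5 libraries the groups did not overlap, since the highest member share, 25%, lay below the lowest matched share, 48.3%. The mean difference was -42.3 ± 9.34 percentage points (SD, n = 5, exact permutation p = 0.0625, 0.4 adjusted). With 5 libraries 0.0625 is the smallest p this test allows, so no share could pass 0.05.

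Read the other way, Csf2 was found more often in CD4 than in CD8 cells. In the T-cell-sorted WT library 31 of 630 Cd4-only T cells had Csf2 (4.92%, interval 3.37% to 6.91%) and 15 of 1401 Cd8-only cells did (1.07%, interval 0.600% to 1.76%). In the library labelled IL34KO 57 of 377 Cd4-only cells had it (15.1%, interval 11.7% to 19.1%) and 22 of 856 Cd8-only cells did (2.57%, interval 1.62% to 3.87%). These shares are not thinned; Cd8-only cells were the deeper class, at medians of 3328 and 3568 UMIs against 2939.5 and 3139. Cd4-only cells were 23.0% of T cells under the WT label and 23.3% under the IL34KO label, so both classes had a higher Csf2 share under the IL34KO label while their proportions were close.

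Interferon gamma was the cytokine most often found beside Csf2 outside BM. Ifng had a UMI in 9 of 11 GVHD members, 10 of 12 in the macrophage-sorted library labelled IL34KO, 48 of 60 in T-cell-sorted WT (80.0% against 53.0% of matched cells) and 80 of 105 in the one labelled IL34KO (76.2% against 57.0%). In BM it was found in 5 of 27 (18.5% against 62.7%). Over the 5 libraries the mean difference was 2.40 ± 28.0 percentage points (SD, exact permutation p = 0.875, adjusted 1), because BM went the opposite way. Cd4-only members with Ifng were 27 of 60 in T-cell-sorted WT (45%) and 40 of 105 in the library labelled IL34KO (38.1%).

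Cytokines of other T-helper programmes were rare in members. Il17a was found in 1 member of each macrophage-sorted library labelled WT or IL34KO and in no member of the other 4 libraries, and Il22 in none of 218, which allows up to 1.38%. Foxp3, the factor of regulatory T cells, was found in 1 member, in the T-cell-sorted library labelled IL34KO. Il13 was found in 2 BM, 2 GVHD and 1 WT macrophage-sorted member and in 3 of each T-cell-sorted library. Il5 was found in 11 of 27 BM members and nowhere else. Il2 was found in 10 BM members and in at most 2 of any other library. Il3, the neighbour of Csf2, was found in 2 GVHD members and 1 T-cell-sorted WT member. Tnf was found in 15 of 27 BM, 4 of 11 GVHD, 4 of 12 macrophage-sorted IL34KO-labelled, 13 of 60 WT and 17 of 105 IL34KO-labelled T-cell-sorted members, with a mean difference from matched cells of 9.25 ± 13.8 percentage points (SD, n = 5, exact permutation p = 0.188, adjusted 0.5).

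**Figure D3:**
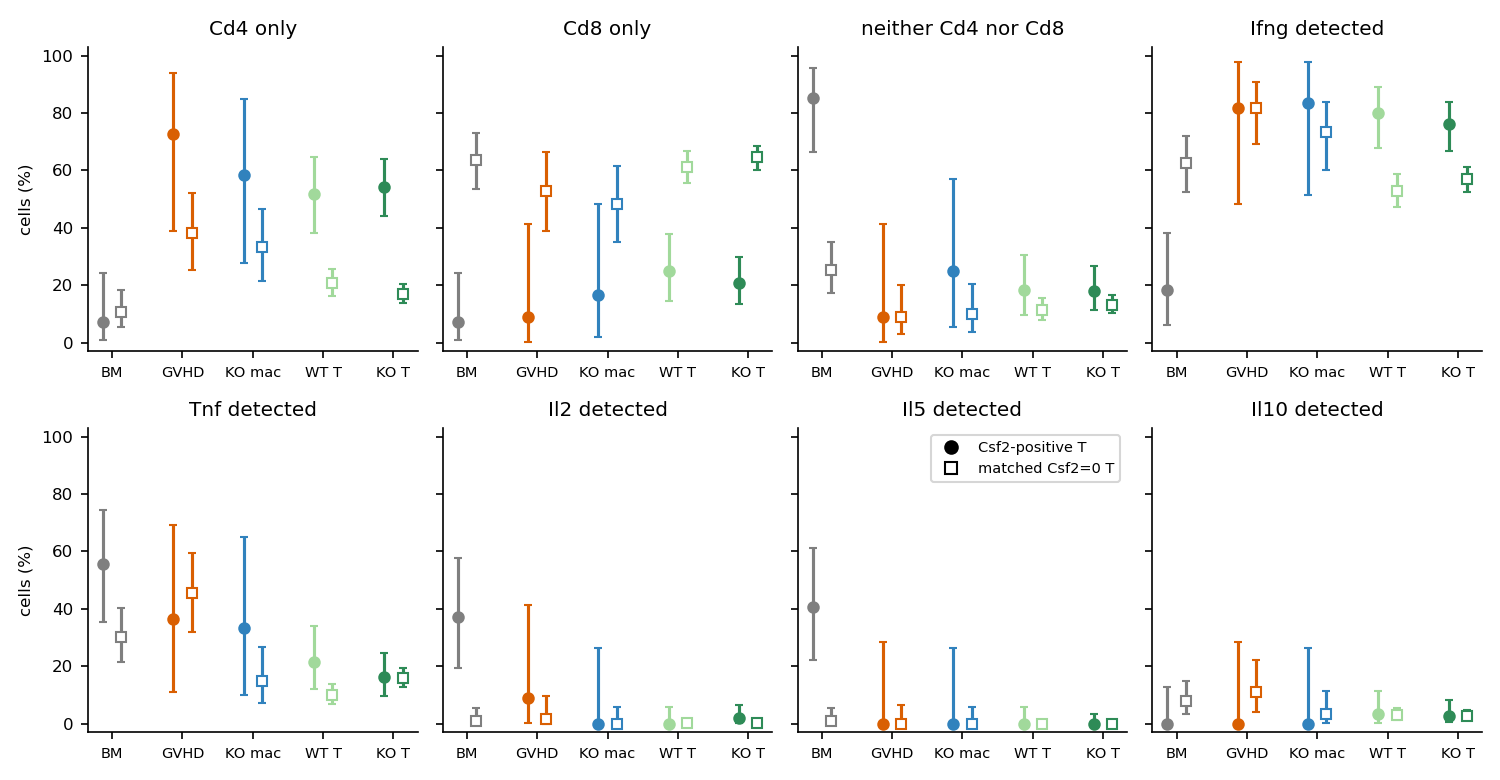
Percent of cells (vertical axis) that are Cd4 only, Cd8 only or neither, or that have a UMI of Ifng, Tnf, Il2, Il5 or Il10, in members (filled circles) and depth-matched Csf2=0 T cells (open squares) of the 5 libraries with at least 10 members, where KO stands for the label IL34KO and mac for the macrophage sort. Whiskers are exact 95% Clopper-Pearson intervals for counting error; the Cd8-only share is lower in members in all 5 libraries, and outside BM the Ifng share is higher in members, except in GVHD, where both are 81.8%.

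Gene expression was then compared over all genes, with UMIs summed per library over members and over matched cells and library as a block in edgeR's quasi-likelihood test. The 5 libraries with at least 10 members entered, and the 3 members of the macrophage-sorted WT library did not. Of 8410 genes tested, 111 were higher in members (1.32%) and 91 lower (1.08%) at a Benjamini-Hochberg adjusted p under 0.05, and 173 of these 202 had the same direction in all 5 libraries. Without BM, 7583 genes were tested, of which 190 (2.51%) were higher and 151 (1.99%) lower. Each library carried weight: leaving out GVHD gave 84 higher and 52 lower, leaving out the macrophage-sorted library labelled IL34KO 52 and 20, leaving out T-cell-sorted WT 42 and 21, and leaving out the T-cell-sorted library labelled IL34KO 23 and 19. Of the called genes named by rule, 13 of 36 higher and 7 of 20 lower kept their call without each of the 5 libraries in turn. When matched cells were also drawn from the same Cd4 and Cd8 class, 29 genes were higher and 34 lower. Of these 63, 49 were calls of the unclassed comparison with the same direction. These class-matched controls were shallower than members. Median UMIs were 8059 in BM members against 6162.5 in 46 controls, and 7222 against 4575.5 in GVHD. They were 5542.5 against 4780.5 in the macrophage-sorted and 4423 against 3693 in the T-cell-sorted library labelled IL34KO, and 4405.5 against 4317 in T-cell-sorted WT. The part of depth in the class-matched calls was not tested.

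Ccl1 and Tnfsf11, a pair of genes for signalling proteins, had the lowest adjusted p of the genes that rose with Csf2. Ccl1, a chemokine for CCR8-bearing T cells, stood at 508 CPM in BM members against 24.7 in matched cells, at 374 against 10.6 in GVHD, at 2321 against 174 in the macrophage-sorted library labelled IL34KO, at 1196 against 113 in T-cell-sorted WT and at 865 against 75.5 in the T-cell-sorted library labelled IL34KO. Every member value exceeded every matched value. The log2 fold change was 3.79 (SE 0.19, adjusted p = 5.01e-09 in edgeR). Per cell, Ccl1 was found in 31 of 60 WT members (51.7%) against 12.3% of matched cells and in 44 of 105 members of the library labelled IL34KO (41.9%) against 9.14%. The annotated Ccl1 gene (ENSMUSG00000020702) lies on chromosome 11 at 82176657 to 82305690, minus strand.

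Tnfsf11, which encodes RANK ligand, a TNF-family cytokine that acts on myeloid cells and lymphoid stroma, followed. It stood at 644 CPM against 158 in BM, 364 against 68.0 in GVHD, 591 against 125 in the macrophage-sorted library labelled IL34KO, 448 against 110 in T-cell-sorted WT and 446 against 100.2 in the T-cell-sorted library labelled IL34KO. The 5 member values lay above all 5 matched values (log2 fold change 2.16, SE 0.14, edgeR adjusted p = 1.99e-07). Tnfsf11 (ENSMUSG00000022015) lies on chromosome 14 at 78277445 to 78308043, minus strand. Ifng, Ccl1 or Tnfsf11 was found in 24 of 27 BM members, 10 of 11 GVHD members, 11 of 12 members of the macrophage-sorted library labelled IL34KO, 54 of 60 of T-cell-sorted WT and 89 of 105 of the T-cell-sorted library labelled IL34KO. No such count was made for matched cells, so it is not a contrast. Ifng alone was found in 62.7% of matched cells in BM and 81.8% in GVHD. It was found in 73.3% in the macrophage-sorted and 57.0% in the T-cell-sorted library labelled IL34KO, and in 53.0% in T-cell-sorted WT. Ccl1 and Tnfsf11 kept their call when Cd4 and Cd8 class was matched, at log2 fold changes of 3.05 and 1.42 (edgeR adjusted p = 9.14e-08 and 0.000225).

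Other ligands of the TNF family rose as well. Cd70, the ligand of the costimulatory receptor CD27, stood at 20.5 CPM against 8.23 in BM, 223 against 8.51 in GVHD, 59.95 against 21.8 in the macrophage-sorted library labelled IL34KO, 138 against 19.9 in T-cell-sorted WT and 95.3 against 18.1 in the T-cell-sorted library labelled IL34KO. Members were above matched cells in each library, though the BM value lay under the highest matched value (log2 fold change 2.59, SE 0.32, edgeR adjusted p = 0.000289). Lta, which encodes lymphotoxin alpha, rose by a log2 fold change of 2.29 (SE 0.35, adjusted p = 0.00167), with 2 to 30 UMIs in the members of a library. Tnfsf9, the 4-1BB ligand, and Tnfsf8, the CD30 ligand, rose by 1.71 and 1.40, and both lost the call without the T-cell-sorted library labelled IL34KO (adjusted p = 0.06 for each). Tnf itself was not called (log2 fold change 0.47, SE 0.24, edgeR adjusted p = 0.465). Of 13 measured genes in the list of other T-cell cytokines and growth factors, 4 rose and none fell, with Penk, the proenkephalin gene, as the fourth. Over all genes tested 1.32% rose and 1.08% fell. Penk rose by 2.26 (SE 0.26) and was at 604 CPM against 112 in T-cell-sorted WT and 700 against 161 in the library labelled IL34KO, but at 4.10 against 9.60 in BM.

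Receptors for interleukin-2 and interleukin-33 were higher in members of all 5 libraries. Il2ra, the alpha chain of the interleukin-2 receptor and a mark of recent activation and of regulatory T cells, stood at 500.3 CPM against 208 in BM, 941 against 134 in GVHD, 368 against 206 in the macrophage-sorted library labelled IL34KO, 400 against 98.2 in T-cell-sorted WT and 374 against 94.2 in the T-cell-sorted library labelled IL34KO. All 5 member values were above all 5 matched values (log2 fold change 1.80, SE 0.21, edgeR adjusted p = 0.000151). Il1rl1 stood at 328 CPM against 41.1 in BM and between 16.0 and 60.7 against 8.35 to 13.8 elsewhere (log2 fold change 2.15, SE 0.34, adjusted p = 0.00206, and 1.60, SE 0.41, adjusted p = 0.0196 without BM). In the T-cell-sorted libraries alone, where Il1rl1 had 5 and 17 UMIs in members, it was not called. Cish, which IL-2-family cytokines and STAT5 induce, rose by 1.03 (SE 0.22, adjusted p = 0.0175), a call that was lost without any of 3 libraries, namely the macrophage-sorted and T-cell-sorted libraries labelled IL34KO and T-cell-sorted WT.

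Of 21 measured regulators and inducing receptors of Csf2, 5 rose and none fell (Bhlhe40, Rora, Gata3, Il2ra and Cish). Over all genes tested 1.32% rose and 1.08% fell. The list median log2 difference was 0.48 against -0.03 over all genes tested. With controls of the same Cd4 and Cd8 class 1 was higher (Il2ra) and 1 lower (Il23r, too rare to test otherwise), with a median of 0.19. Bhlhe40, a transcription factor needed for GM-CSF in T helper cells, was at 1005 CPM against 688 in BM, 870 against 651 in GVHD, 608 against 413 in the macrophage-sorted library labelled IL34KO, 617 against 463 in T-cell-sorted WT and 946 against 610 in the T-cell-sorted library labelled IL34KO. Members and matched cells overlapped between libraries, but members were above their own matched cells in each (log2 fold change 0.52, SE 0.12, edgeR adjusted p = 0.0325). That call was lost when any 1 of the 2 libraries labelled IL34KO or T-cell-sorted WT was left out (highest adjusted p 0.16). Gata3 rose by 1.12 (SE 0.27, adjusted p = 0.0387) with 775 CPM against 147 in BM, and by 0.63 (adjusted p = 0.0558) without BM.

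Of 19 measured genes of the NF-kB pathway, which T-cell receptor and costimulatory signals switch on, 3 rose and none fell. For comparison, 1.32% of all genes tested rose and 1.08% fell. Nfkbia, the inhibitor that NF-kB itself induces, stood at 2534 CPM against 1215 in BM, 1903 against 991 in GVHD, 1310 against 670 in the macrophage-sorted library labelled IL34KO, 1359 against 677 in T-cell-sorted WT and 1548 against 776 in the T-cell-sorted library labelled IL34KO. The 5 member values lay above all matched values (log2 fold change 1.0, SE 0.11, edgeR adjusted p = 0.0001). Nfkb1 rose by 0.81 (SE 0.12) and Rel by 0.83 (SE 0.13). All 3 kept their call without each library in turn, but with class-matched controls only Nfkbia did, at 0.70, while Nfkb1 had 0.48 (edgeR adjusted p = 0.0921) and Rel 0.56 (adjusted p = 0.0622). Of 29 immediate-early and T-cell-receptor-induced genes 4 rose and none fell, namely Nr4a1, Egr3, Gadd45b and Cd200. Of these only Gadd45b, at 0.97, kept its call without each library in turn, and with class-matched controls Crtam alone of the list was called. Without BM, 5 of 29 rose (Nr4a3, Dusp4, Crtam, Gadd45b and Cd200) and 1 fell (Fos), where 2.51% of all genes tested rose and 1.99% fell. None of 12 cytokine mRNA decay genes was called in edgeR, with a list median of -0.01.

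Further genes among those with the largest rise had varied roles. Dusp14, a phosphatase of MAP kinase signalling, rose by a log2 fold change of 1.97. Cd81, a tetraspanin, rose by 1.84, Tbc1d4, a regulator of glucose transporter traffic, by 1.81, and Mfhas1 by 1.62, and these kept their call without each library in turn. St6gal1, a sialyltransferase, rose by 2.02 and lost its call without the T-cell-sorted library labelled IL34KO. Lgals7, a galectin gene, rose by 2.61 with 274 CPM against 5.93 in the macrophage-sorted library labelled IL34KO but 44.8 against 39.8 in T-cell-sorted WT. Ccdc184 rose by 1.79, and in members it stood at 238 CPM in BM and at 10.1 to 36.4 in the other 4 libraries with at least 10 members. Among costimulatory receptors and ligands 3 of 15 rose, Tnfsf8 and the receptors Tnfrsf4 (OX40) and Tnfrsf18 (GITR), where 1.32% of all genes tested rose. Tnfrsf4 stood below its matched cells in BM, at 61.5 against 119 CPM. Tnfrsf4 held its call in 1 of the 5 comparisons that left out a library, that without BM, and none of the 3 was called with class-matched controls (edgeR adjusted p = 0.192 to 0.658).

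**Figure D4:**
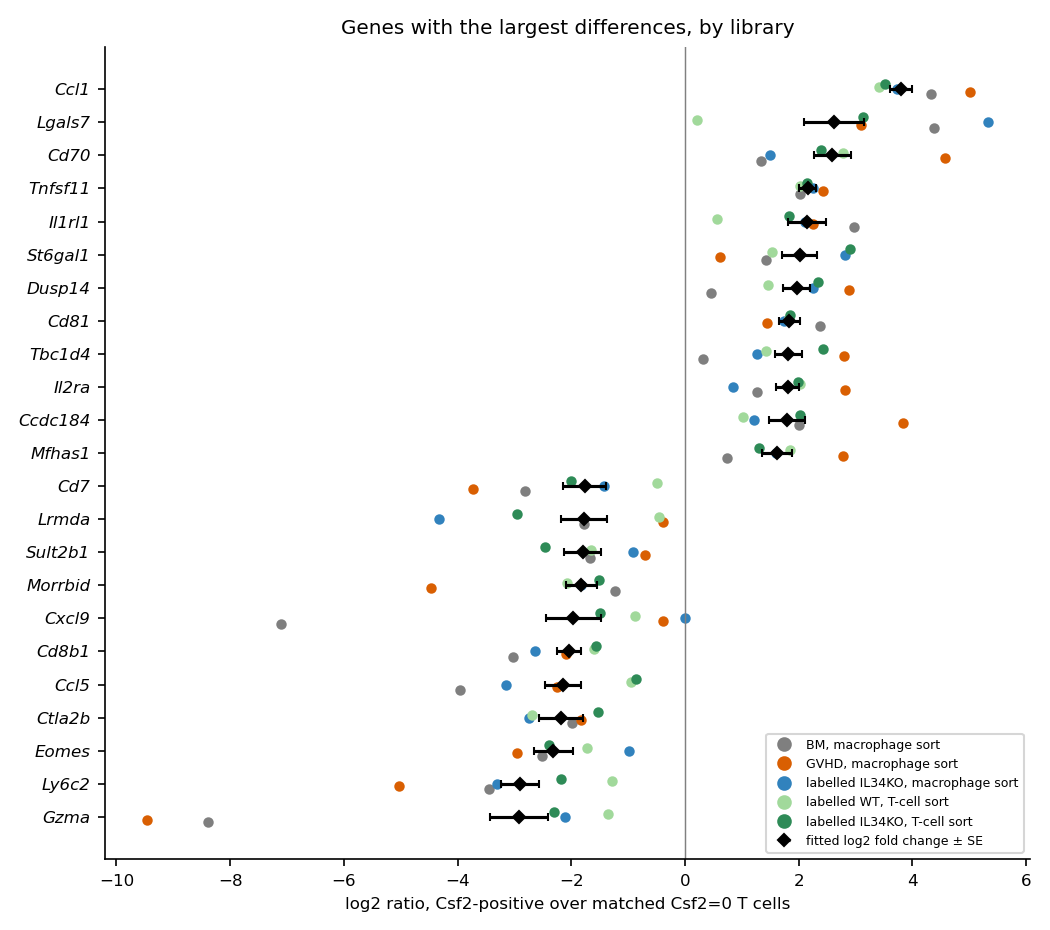
Log2 ratio of members to depth-matched Csf2=0 T cells (horizontal axis) for the 12 genes with the largest rise and 11 of those with the largest fall, as 1 coloured point for each of the 5 libraries and a black diamond for the edgeR estimate with its SE. Points of a library with 0 UMIs in members or matched cells, such as Gzma in BM and GVHD, depend on a small prior count; Ccl1 and Tnfsf11 lie right of 0 and Gzma, Ly6c2 and Cd8b1 left of 0 in all 5 libraries.

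Cytotoxic and CD8 effector genes led the lower side. Gzma, the granzyme A protease, had no UMI in BM and GVHD members against 690 and 3559 CPM in their matched cells. It stood at 308 against 1349 CPM in the macrophage-sorted library labelled IL34KO, at 716 against 1838 in T-cell-sorted WT and at 394 against 1955 in the T-cell-sorted library labelled IL34KO. Members were lower in each library (log2 fold change -2.91, SE 0.51, edgeR adjusted p = 0.00572), and the adjusted p rose to at most 0.051 when either library labelled IL34KO was left out. Of 16 measured cytotoxicity genes, 3 fell (Gzma, Gzmk and Klrd1) and 1 rose (Srgn, the granule proteoglycan serglycin). Without BM the list was mixed: 4 of 16 fell (Gzma, Gzmk, Klrd1 and Lamp1) and 3 rose, Srgn and the granzyme genes Gzmc and Gzmf. Of all genes tested 1.08% fell and 1.32% rose, or 1.99% and 2.51% without BM. Gzmb was not called, at a log2 fold change of -1.12 (SE 0.36, adjusted p = 0.143), and Nkg7 had -0.24 (SE 0.20, adjusted p = 0.717).

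Ccl5, a chemokine of effector CD8 cells, stood at 590 CPM against 9173 in BM, 1295 against 6194 in GVHD, 351 against 3163 in the macrophage-sorted library labelled IL34KO, 3466 against 6666 in T-cell-sorted WT and 3223 against 5860 in the T-cell-sorted library labelled IL34KO. Members were lower in each library (log2 fold change -2.15, SE 0.32, edgeR adjusted p = 0.00164). Ly6c2 fell by 2.89, Eomes, a transcription factor of CD8 and NK cells, by 2.31, Ctla2b by 2.18 and the long non-coding RNA Morrbid by 1.82. These 4 genes and Ccl5 kept their call without each library in turn. Cd8b1 fell by 2.04 and Cd8a by 1.71, while Cd4 rose by 1.14 (SE 0.25, edgeR adjusted p = 0.0246). Cd4 held that call without BM alone among the leave-one-out comparisons, at 1.37, and with class matched it was -0.08, as the matching fixes. With class matched, Ly6c2, Eomes, Ccl5, Morrbid and Gzma were still called lower, with Gzma at -2.29 (edgeR adjusted p = 0.0449).

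The type 1 effector genes split by library. Of 16 measured, 2 rose (Il18rap and Lta) and 1 fell (Ccl5) over 5 libraries. Without BM, 9 of 15 rose, and Ccl5 and Txk fell. Of all genes tested 1.32% rose and 1.08% fell, or 2.51% and 1.99% without BM. Ifng stood at 139 CPM in BM members against 410 in matched cells, but at 2449 against 589 in GVHD, 1816 against 841 in the macrophage-sorted library labelled IL34KO, 1586 against 423 in T-cell-sorted WT and 1245 against 444 in the T-cell-sorted library labelled IL34KO. Its log2 fold change was 1.16 (SE 0.32, edgeR adjusted p = 0.068) with BM and 1.63 (SE 0.13, adjusted p = 2.25e-09) without it, and with class-matched controls it was called at 1.14 (adjusted p = 0.042). Among genes named here after their values were seen, Ccl3, Ccl4 and Xcl1, chemokines of activated lymphocytes, rose without BM by 2.22, 0.92 and 2.45. Xcl1 was at 5352 CPM against 186 in the macrophage-sorted library labelled IL34KO and at 107 against 348 in BM. Tbx21 was not called (log2 fold change -0.36, SE 0.28, and 0.03 without BM).

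Over all genes tested 1.32% rose and 1.08% fell, or 2.51% and 1.99% without BM. The list counts below stand beside these shares, and counts of 1 or 2 genes are too small for a result about a list. Of 5 measured type 2 genes 3 rose (Gata3, Il1rl1 and Ccr8), and without BM 1 of 4 did. With class-matched controls only Il1rl1 of the type 2 list was called. Of 6 type 3 genes 2 rose (Rora and Tmem176a), and without BM only Rora did, while Il17a and Il22 had too few UMIs to be tested. With class-matched controls no type 3 gene rose, and Il17a and Il23r were called lower. Of 8 regulatory T-cell genes 3 rose (Il2ra, Tnfrsf18 and Tnfrsf4) and Ikzf2, which encodes Helios, fell, while Foxp3 was too rare to test. With class-matched controls only Il2ra of this list was called. Of 20 cell cycle genes none rose and 2 fell (Birc5 and Cenpf), and 5 fell without BM. No cell cycle gene was called with class-matched controls. Among 14 checkpoint genes 2 fell (Cd244a and Cd38), of 16 gut homing genes Gpr183 rose, and of 12 naive and memory genes Ccr7 rose. Neither Gpr183 nor any checkpoint or naive and memory gene was called with class-matched controls. Gpr183 also lost its call when any 1 of the 5 libraries was left out. Without BM, Btla of the checkpoint list rose and Entpd1 fell as well. Gpr183 was then not called and Itgb7 fell, and Klf2 and Ly6c1 of the naive and memory list fell. The lists of glycolysis (18 genes), amino acid use (18), type I interferon response (17) and stress (14) had no call in edgeR, with medians of 0.18, 0.14, -0.20 and 0.20. Without BM, Hk2 of the glycolysis list and Hspd1 of the stress list rose, and Fos of the stress list fell. Csf1, the gene of M-CSF, the other CSF-1R ligand, was not called (log2 fold change 0.45, SE 0.25, edgeR adjusted p = 0.524), and Csf2rb, a chain of the GM-CSF receptor, had -0.45 (SE 0.52, adjusted p = 0.82).

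Transcripts of other cell types were measured in members and matched cells alike. The summed macrophage markers stood at 176 CPM in BM members against 230 in matched cells, 121 against 191 in GVHD, 325 against 659 in the macrophage-sorted library labelled IL34KO, 1177 against 1216 in T-cell-sorted WT and 704 against 1481 in the T-cell-sorted library labelled IL34KO. None of the 7 macrophage markers tested was called in edgeR; Lyz2 was called lower without BM, and Lyz2 and C1qb with class-matched controls. Both NK-cell markers tested, Eomes and Klre1, were lower in members, and the 2 dendritic-cell markers tested, Ccr7 and Zbtb46, were higher, at summed levels of 94.3 to 189 CPM against 41.1 to 101 in matched cells. Xcr1, Clec9a, Flt3 and Siglech are the other genes of that list, and 3 or 4 of its 6 genes were at 0 in members of each of the 5 libraries. The part of these transcripts in the results was not tested. When cells with more than 2 UMIs of macrophage or epithelial markers were left out, 41 genes were higher and 12 lower.

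Ccl1 and Tnfsf11 were also higher in members within each lineage class of the T-cell-sorted libraries. These values compare all Csf2-negative cells of the class, which were shallower, and carry no test. Among Cd4-only cells Ccl1 was at 1970 CPM in the 31 WT members against 304 in 599 other cells, and at 1397 in the 57 members labelled IL34KO against 220 in 320 others. Among Cd8-only cells it was at 294 CPM in 15 WT members against 41.8 in 1386 others, and at 323 in 22 members labelled IL34KO against 22.7 in 834 others. These Cd8-only member values rest on 3 of the 15 and 7 of the 22 cells. Ccl1 was thus lower in CD8 than in CD4 members, and higher in members of each class than in the Csf2-negative cells of that class. Tnfsf11 among Cd8-only cells was at 243 against 22.8 CPM under the WT label and at 123 against 17.4 under the IL34KO label. Gzma among Cd8-only cells was at 1047 against 2323 CPM under the WT label and at 652 against 2781 under the IL34KO label, lower in members of both libraries. Among Cd4-only cells Gzma was lower in WT members, at 65.5 against 269 CPM, but higher in members labelled IL34KO, at 425 against 177. These member values rest on 2 of the 31 and 5 of the 57 cells. Under the IL34KO label Gzma was found in 8.77% of members and 9.38% of the others.

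Members with more Csf2 molecules had more Ccl1 and Tnfsf11 in the T-cell-sorted library labelled IL34KO. The 47 members with at least 2 Csf2 UMIs had 1167 CPM of Ccl1 and 607 of Tnfsf11, and the 58 with a single Csf2 UMI had 596 and 301. Cd4-only cells were 63.8% of the first and 46.6% of the second, at median depths of 4572 and 4350 UMIs. In T-cell-sorted WT, 8 members had at least 2 Csf2 UMIs, with 1705 CPM of Ccl1 and 707 of Tnfsf11 against 1103 and 400.5 in the other 52. These are 2 libraries with no test of the difference.

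Members of the T-cell-sorted library labelled IL34KO were set against those of WT, as 1 library each and with no p-value. Of 4025 genes with at least 50 CPM in either, 516 were at least 1.5-fold higher (12.8%) and 293 at least 1.5-fold lower (7.28%) in the library labelled IL34KO. Of the genes with a large rise in members, Tnfsf11 had a ratio of 1.0 (interval 0.81 to 1.23) and Il2ra 0.94 (interval 0.75 to 1.18). Ccl1 was lower in members labelled IL34KO, at 0.72 (interval 0.63 to 0.83), and matched cells had 0.67. Cd70 had a ratio of 0.69 (interval 0.46 to 1.06). Lgals7 was higher at 2.25 (interval 1.24 to 4.36), St6gal1 at 2.03 (interval 1.21 to 3.56) and Dusp14 at 1.61 (interval 1.17 to 2.23), where matched cells had 0.29, 0.77 and 0.87. Ifng was lower in members labelled IL34KO, at 1245 against 1586 CPM (ratio 0.78, interval 0.70 to 0.88), where matched cells had 1.05 (interval 0.95 to 1.16). Gzma was at 394 against 716 CPM (ratio 0.55, interval 0.45 to 0.66), where matched cells had 1.06. Bhlhe40 was at 946 against 617 CPM (ratio 1.53, interval 1.30 to 1.82), where matched cells had 1.32. Of 17 measured regulators of Csf2, 3 were at least 1.5-fold higher (Bhlhe40, Batf and Socs3) and none lower, where 12.8% and 7.28% of all genes were. With sums scaled by TMM, a normalization by trimmed means, 2 were higher and 0 lower. Counts this near the share over all genes carry no result about the list. Csf2 per member, which the rule conditions on, was 385 against 256 CPM.

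**Figure D5:**
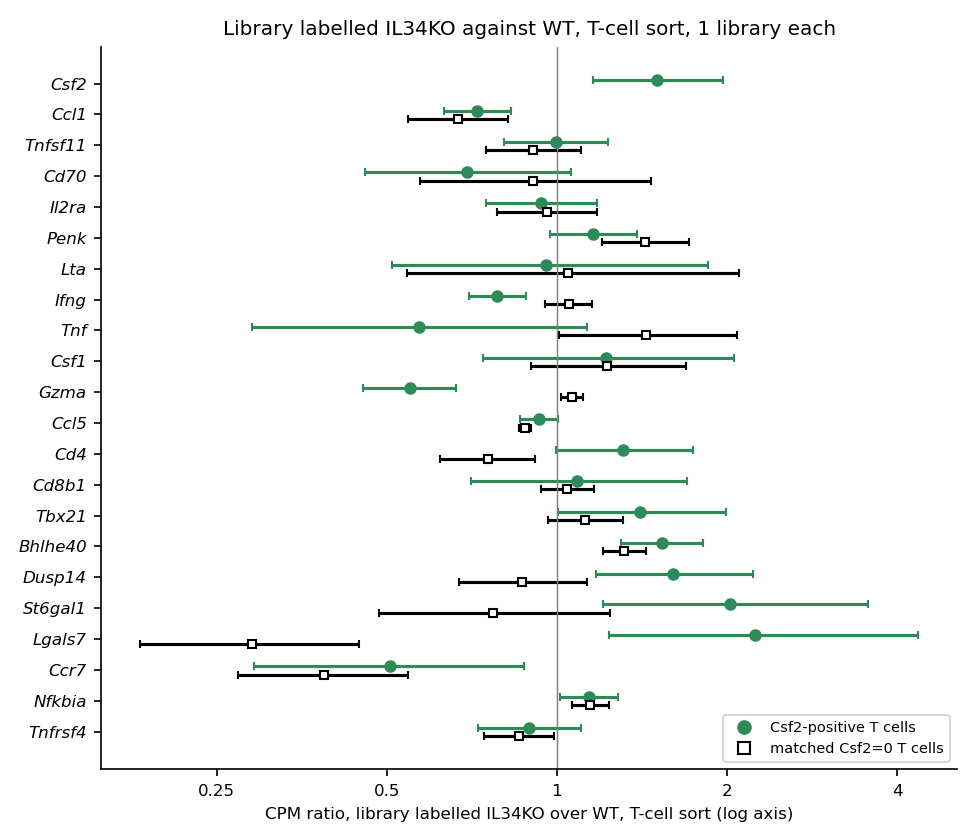
Ratio of CPM in the T-cell-sorted library labelled IL34KO to that labelled WT (horizontal log axis) for the genes on the vertical axis, in members (filled circles) and depth-matched Csf2=0 T cells (open squares). Whiskers are 95% conditional binomial intervals that cover counting error, with 1 library on each side; Tnfsf11 lies at 1.0 and Gzma at 0.55 in members.

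GVHD members were set against BM members in the same way, on smaller sums of 98804 and 243871 UMIs where the T-cell-sorted pair had 576866 and 312746. The counts of genes past 1.5-fold in these pairs are therefore not compared. Of 4717 genes with at least 50 CPM in either, 1821 were at least 1.5-fold higher (38.6%) and 1102 lower (23.4%) in GVHD members. With sums scaled by TMM, a normalization by trimmed means, the split turned to 1096 higher and 1699 lower, and the median log2 ratio of all genes moved from 0.27 to -0.20. Of 10 measured type 2 genes 9 were lower and 1 higher under both scalings, and Gata3 was at 111 CPM in GVHD members against 775 in BM. Il5 had 0 UMIs in GVHD members and 122 in BM members, and Il4 had 0 and 31. Of 13 type 1 effector genes 9 were higher and 1 lower, or 8 and 1 with TMM, and Ifng was at 2449 against 139 CPM (ratio 17.6, interval 12.2 to 26.0). All 13 measured cell cycle genes were at least 1.5-fold higher in GVHD members, 12 of them also with TMM, and 8 of 11 type I interferon genes were lower under both scalings. Matched Csf2-negative cells of the 2 libraries also differed by at least 1.5-fold the same way for 8 of the 9 lower type 2 genes, 9 of the 13 cell cycle genes, 7 of the 8 interferon genes and 2 of the 9 higher type 1 genes. Isg15, for one, had a ratio of 0.22 in members and 0.22 in matched cells. The 20 BM members without Cd3 or Trac are part of this comparison, and with 7 and 11 cells left no comparison without them was made.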

How the data were processed

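The authors deposited 10x matrices of raw UMI counts per gene and barcode for each of 6 libraries, made with Cell Ranger 7.0.1 on mm10 per the submitters' processing notes. The labels name both a 3′ and a 5′ kit, without saying which library used which. Barcodes needed 500 genes or more and 10% mitochondrial UMIs or fewer, and BM barcodes also present in GVHD were dropped. The members and gene lists were chosen with earlier results of these data known. Doublets were kept in the main comparison, and Scrublet (scanpy 1.11.5) was used as an alternative; its automatic threshold called 0 cells in 3 libraries, so the expected number with the highest scores was left out. Each member was matched to the 5 nearest Csf2=0 T cells of its library in log UMIs, deepest member first. UMIs were summed per library and arm, and genes with at least 10 UMIs in at least 3 libraries were tested in edgeR 4.0.16 (R 4.3.3) with TMM, library as block, the quasi-likelihood test and Benjamini-Hochberg adjustment at 0.05; the 9 genes of the rule were left out. CPM are UMIs divided by the summed UMIs of the cells, times 1e6. Shares carry exact Clopper-Pearson intervals and ratios conditional binomial intervals, at 95%. Shares of libraries were compared by an exact sign-flip permutation test.

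Named genes were the 12 largest rises and 12 largest falls among called genes with the same direction in all 5 libraries and a mean log2 CPM of at least 5, up to 4 called members of each list (or its 2 highest where none was called), and a fixed set of cytokines and lineage genes; others are said to be named afterwards. Results on 2 of the named genes are not reported here. Alternatives were RLE size factors, DESeq2 1.42.0, no block, no filter on low counts, other controls, gates, cell filters and depths, and leaving out libraries. Gene positions are from GENCODE M21. No sequence is printed.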

Additional observations from a re-analysis of the deposited data

Results flagged for a closer look

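In BM, Cd4 and Ifng moved in the opposite direction from the other libraries. The log2 ratio of members to matched T cells was -1.39 for Cd4 in BM against a median of 1.34 (0.868 to 1.80) in the other 4 libraries, and -1.54 for Ifng against a median of 1.70 (1.11 to 2.06). With 1 BM library this difference was not tested. The 20 BM members without a Cd3 or Trac UMI, of 27, held no Cd4 UMI and 1 of them an Ifng UMI.

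Csf2 UMIs also appeared in filtered cells that are not members. There were 118 such UMIs in 31 cells of BM, 29 in 13 cells of GVHD, 10 in 9 cells of the macrophage-sorted library labelled IL34KO, 39 in 34 cells of T-cell-sorted WT and 241 in 85 cells of the T-cell-sorted library labelled IL34KO. Of these cells 15, 9, 5, 21 and 67 had a Csf1r UMI, and 14, 9, 7, 26 and 70 had a T-cell gene sum of at least 3. Whether these are doublets was not tested.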

How the results depend on the processing

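Counts of genes higher and lower in members, 111 and 91 in the comparison reported, were 196 and 197 with no filter on low counts, 5 and 1 with no library block, 70 and 44 with 1 control per cell, 29 and 34 with class-matched controls, 41 and 12 without cells of macrophage or epithelial marker sums above 2, 61 and 36 with cells thinned to 1500 UMIs, 330 and 241 in T-cell-sorted libraries only and 8 and 7 in macrophage-sorted libraries only. Requiring a Cd3 or Trac UMI, added after the data were seen, gave 191 and 150. With at least 2 Csf2 UMIs edgeR called 1 and 0 (217 and 196 at an unadjusted p under 0.05), and without cycling cells 4 and 0 (136 and 162). Lower genes were 55 with DESeq2, 59 with stricter cell filters and 58 without Scrublet doublets, where the higher counts stayed within 1.5 times. Leaving out 1 library gave 23 to 190 higher and 19 to 151 lower genes, the fewest without the T-cell-sorted library labelled IL34KO and the most without BM. RLE size factors, no depth matching, a T-cell sum of at least 5 and looser cell filters kept both counts within 1.5 times. Of 1488 planned refits over 72 named genes, 384 lost a call, 13 gained one and 1 reversed, Cd4 with class-matched controls at -0.077, which the matching fixes. For the other changes the cause was not tested.

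The ratio of Csf2 shares in GVHD to BM turned to 5.80 with a Cd3 or Trac UMI required and was 0.30 to 0.59 under the other alternatives. That of the T-cell-sorted pair was 2.84 to 6.10. That of macrophage-sorted IL34KO-labelled to WT was 1.92 unthinned, 1.94 with a T-cell sum of at least 5 and 1.49 with stricter filters, and had no value when thinned to a greater depth or without the Csf1r and Epcam exclusion. Each ratio of thinned shares rests on 1 random draw. With a Cd3 or Trac UMI required, 2.83% of BM and 4.72% of GVHD T cells were expected over all draws. At a floor of 20 CPM, 1231 genes were higher and 768 lower in T-cell-sorted members labelled IL34KO, and 3241 and 2227 in GVHD members. TMM gave 1096 and 1699 for GVHD. Both comparisons with at least 2 Csf2 UMIs were not run, since a library then had fewer than 10 members. No paired analysis was possible because each group is 1 library. Depth is a limit: 132 of 218 members rest on a single Csf2 UMI, and a cell with no Csf2 UMI may still express it.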
